A study of Homo sapiens with 9 samples.

Results

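The genes described here are 34 members of the unfolded protein response and of protein folding in the endoplasmic reticulum (ER). They comprise 4 sensors and signalling genes, 11 chaperones and cofactors, 5 thiol-disulfide oxidoreductases, 10 genes of ER-associated degradation and 4 genes of translocation, vesicle transport or ER membrane function. They were chosen by function and matched by gene symbol among the 44608 named entries of each count table. All 34 were listed, and 33 passed the filter on low counts and entered the test of 14815 genes. DERL3, a derlin of the degradation pathway, had no read in any of the 9 libraries, and a count of 0 allows a level of up to 0.156 to 0.200 CPM (counts scaled to a common library size) per library, a limit that covers counting error only. In the GENCODE 29 annotation, 87.3% of the DERL3 exon bases overlap exons of SMARCB1 on the other strand. A further DERL3 entry also had no read, and whether the authors' counting left DERL3 reads out was not tested.

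U2OS cells, a human osteosarcoma line, were transfected by lipofection (RNAiMAX) with an siRNA to NFKB2, an siRNA to RELB or a non-silencing siRNA, each at 75 nM, and RNA was taken 48 h later. The groups are called siNFKB2, siRELB and siNS below, with 3 libraries each, prepared from oligo-dT selected mRNA. NFKB2 encodes the p100 precursor and its p52 product, and RELB the partner of p52 in the non-canonical NF-κB pathway. The title of the series places the work in a study of NFKB2 and homologous recombination genes, and the comparisons below ask how the ER stress genes stood in the same libraries. All groups are 1 cell line, the labels give neither the sequences nor the number of siRNAs per target, and they do not say whether the replicates were separate cultures, so p-values measure only the spread between these libraries.

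The unfolded protein response is the signalling system that matches the folding capacity of the ER to its load. In its textbook form the chaperone BiP (HSPA5) holds 3 membrane sensors inactive: IRE1 (ERN1), PERK (EIF2AK3) and ATF6. On release, IRE1 splices XBP1 mRNA into the form that encodes an active transcription factor, PERK phosphorylates eIF2α and slows translation, and ATF6 is cut to free a transcription factor. XBP1 and ATF6 act on chaperone, oxidoreductase and degradation genes through ER stress response elements, among other sites. Counts per gene cannot separate spliced from unspliced XBP1, nor do they report phosphorylation or cleavage.

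Library totals ran from 15011789 to 19279572 counts, and the 34 members together took 0.653% to 0.713% of counts in siNFKB2, 0.690% to 0.794% in siRELB and 0.705% to 0.833% in siNS libraries. The targeted genes came out with their labels. NFKB2 stood at 5.26, 22.9 and 48.4 CPM in siNFKB2, 117, 169 and 168 in siRELB, and 80.7, 126 and 117 in siNS libraries. RELB stood at 21.1, 41.9 and 42.9 CPM in siNFKB2, 2.66, 4.66 and 5.36 in siRELB and 17.1, 30.3 and 34.1 in siNS. The NFKB2 level left by its siRNA thus varied between the siNFKB2 libraries, at 4.86%, 21.1% and 44.8% of the siNS mean. Of 9 mesenchymal markers fixed for U2OS, all were expressed (5771 to 6258, 6000 to 7042 and 6636 to 8234 CPM summed in siNFKB2, siRELB and siNS). In the main test below 4 of them were lower in siNFKB2 than in siNS (13.5% of all genes). In siRELB against siNS 1 was lower, FN1 (0.81%). The 7 epithelial markers summed to 9.50 to 12.6, 13.1 to 15.5 and 10.3 to 17.2 CPM, and the 6 blood markers to 2.15 to 4.78, 4.92 to 7.33 and 5.06 to 6.99 CPM, with CD3E and LYZ at 0 in all 9 libraries. Of 3 epithelial markers tested, CDH1 was called higher in siNFKB2 and in siRELB than in siNS (12.6% and 1.21% of all genes). CLDN4 was called lower in siNFKB2 (13.5%). The share of counts on mitochondrial ribosomal RNA, a sign of RNA quality or selection, was 0.519%, 1.01% and 2.68% in siNFKB2, 0.379%, 0.653% and 0.856% in siRELB and 0.406%, 1.33% and 0.630% in siNS libraries. Fits with this share as a covariate called 17, 2 and 11 of 33 members in siNFKB2 against siNS, siRELB against siNS and siNFKB2 against siRELB, and 40.4%, 8.95% and 35.6% of all genes, so calls rose across all genes beside the 7, 0 and 7 members of the main test below.

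Many of these genes share a regulatory element in their promoters. The ER stress response element (ERSE), searched as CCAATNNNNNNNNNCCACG on both strands from 250 bases before to 50 after each RefSeq start (GRCh38.p14), was found in 8 of the 30 members that had a promoter entry, or 26.7%. Over all 27305 genes with an entry it was found in 25, or 0.0916%. The element was first described in promoters of this family, so this is a description of the members and not independent evidence about them. Its letters were, with the CCAAT box and the CCACG box in capitals and each site read on the strand that carries the motif:
XBP1: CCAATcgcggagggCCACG
PDIA6: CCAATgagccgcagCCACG
HSPA5: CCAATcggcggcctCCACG
CALR: CCAATgatggtcgaCCACG
CANX: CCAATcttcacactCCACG
CRELD2: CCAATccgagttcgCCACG
ERO1B: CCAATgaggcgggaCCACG
HSP90B1: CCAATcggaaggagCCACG
HSP90B1, second site: CCAATcgcgccgcaCCACG
The shorter ERSE-II, searched as ATTGG, any base and then CCACG, was found in 3 of the 30 members (10.0%), against 19 of all genes (0.0696%):
HERPUD1: ATTGGgCCACG
HYOU1, at both of its sites: ATTGGaCCACG
SDF2L1: ATTGGtCCACG
The core CCACG alone, which both elements contain, was in 23 of 30 members (76.7%) and 11494 of all genes (42.1%). The motif TGACGTGG, known as a site of XBP1, contains the core on its other strand and was in 1 member, HYOU1, and in 253 of all genes (0.927%). A match is a run of letters and does not show that a factor bound there.

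The 250 bases before the start are shown for the 3 ERSE members with the smallest adjusted p-values over the comparisons below, XBP1, PDIA6 and CALR, each on the strand of its gene with the boxes of the element in capitals. The CALR element lies on the opposite strand, so its boxes read CGTGG and ATTGG here. The stretches are chr22:28800570-28800819 on the minus strand, chr2:10812786-10813035 on the minus strand and chr19:12938359-12938608 on the plus strand.
XBP1: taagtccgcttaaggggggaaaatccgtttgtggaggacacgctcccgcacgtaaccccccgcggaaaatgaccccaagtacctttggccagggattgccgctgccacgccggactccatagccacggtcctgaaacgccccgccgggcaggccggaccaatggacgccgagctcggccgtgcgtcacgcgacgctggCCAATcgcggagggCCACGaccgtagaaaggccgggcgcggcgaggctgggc
PDIA6: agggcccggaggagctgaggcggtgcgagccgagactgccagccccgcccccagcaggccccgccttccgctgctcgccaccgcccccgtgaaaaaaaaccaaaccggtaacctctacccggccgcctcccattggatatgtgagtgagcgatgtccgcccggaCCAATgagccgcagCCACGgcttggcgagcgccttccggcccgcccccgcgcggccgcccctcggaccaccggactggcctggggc
CALR: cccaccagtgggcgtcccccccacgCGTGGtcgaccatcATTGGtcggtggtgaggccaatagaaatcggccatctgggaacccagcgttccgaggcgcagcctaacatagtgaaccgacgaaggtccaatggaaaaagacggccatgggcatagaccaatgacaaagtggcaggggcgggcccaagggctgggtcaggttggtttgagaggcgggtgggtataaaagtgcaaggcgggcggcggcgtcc
Read along each gene, the XBP1 element began 52 bases before the start, the PDIA6 element 86 and the CALR element 225 bases before it.

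Levels of different genes were compared per length, as CPM per kb of the union of exons in GENCODE 29, with no test. The lectin chaperone calreticulin (CALR) was the most abundant member, at 673, 716 and 831 CPM per kb in the means of siNFKB2, siRELB and siNS. It was followed by HSP90B1, the ER form of HSP90 also called GRP94 (285, 323 and 342), by P4HB, the oxidoreductase PDI (275, 288 and 329), by SEC61B, a subunit of the translocation channel (262, 226 and 259), and by HSPA5 (198, 196 and 231). The sensors and XBP1 were spread from the middle to the low end of the list. XBP1 stood at 22.9, 50.03 and 41.0 CPM per kb, ATF6 at 12.6, 15.2 and 15.4, EIF2AK3 at 5.37, 6.78 and 5.22 and ERN1 at 2.80, 1.47 and 1.09. The lowest tested members were ERO1B and HYOU1, so the members spanned several orders of magnitude and low levels were found in most roles.

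**Figure D1:**
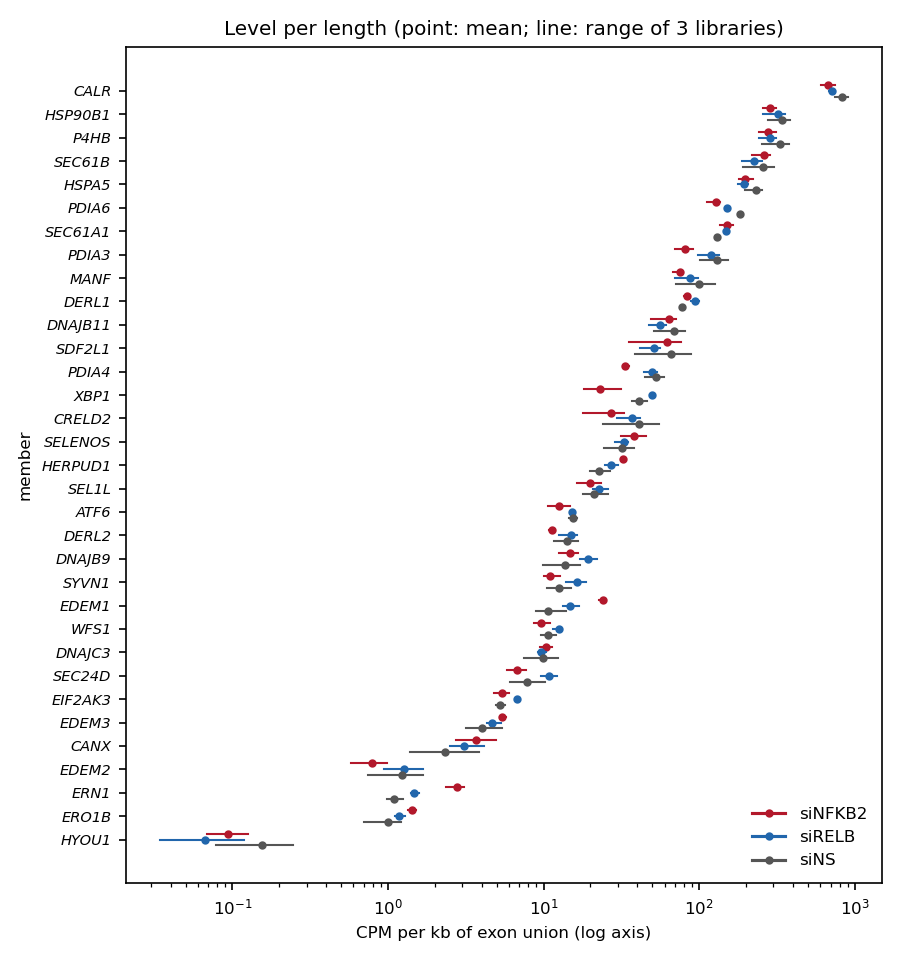
Level of the 33 members with reads, as CPM per kb of exon on a log axis, with a point at each group's mean and a line over the range of its 3 libraries, for siNFKB2, siRELB and siNS from top to bottom. CALR lies at the top, near 673 to 831 CPM per kb in the group means, and ERN1 near the bottom, at 1.09 to 2.80, where its siNFKB2 line lies to the right of the siRELB and siNS lines.

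HYOU1, CANX and EDEM2 had far fewer reads than their companions, and their values are uncertain. HYOU1, a large chaperone related to HSP70, had 6, 7 and 9 reads in siNFKB2, 11, 3 and 4 in siRELB and 7, 11 and 21 in siNS libraries. CANX, the membrane-bound relative of calreticulin, had 98 to 411 reads per library, and a further entry of the same symbol had 199 to 360. That entry was itself higher in siNFKB2 than in siNS, by 0.55 on the log2 scale (adjusted p 0.0237, edgeR's quasi-likelihood test with Benjamini-Hochberg adjustment), while the entry used here was at 0.67 (adjusted p 0.218). EDEM2, a mannosidase-like protein of the degradation pathway, had 19 to 63 reads, and a RefSeq readthrough locus covers the whole gene. The reads of these genes may be split with other entries in the authors' counting; whether they were was not tested.

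In siNFKB2 against siNS, 7 of the 33 tested members passed an adjusted p of 0.05 in edgeR's quasi-likelihood test, with Benjamini-Hochberg adjustment across every gene tested, while 26.1% of those genes did so. Of these, 3 were higher (ERN1, EDEM1 and HERPUD1), against 12.6% of all genes, and 4 were lower (XBP1, PDIA3, PDIA4 and PDIA6), against 13.5%. The members' share of calls thus lay near the background. Their median log2 fold change was -0.14, beside -0.00 for all genes, with 20 of 33 below 0, where 50.3% of all genes lay. The oxidoreductases held 3 of the 4 lower calls, the degradation genes 2 of the 3 higher ones, and none of the 11 chaperones was called in the main test. The 26 members not called lay between -0.75 and 0.67. The median half-width of a member's 95% interval was 0.38 on the log2 scale. Shifts smaller than that were mostly not detectable with 3 libraries a group. Larger ones could also be missed, since the intervals are not adjusted for the number of genes tested. The count was 15 without siNS replicate 1 (32.3% of all genes) and 4 without siNFKB2 replicate 2 (14.6%).

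In siRELB against siNS, none of the 33 members passed edgeR's quasi-likelihood test after adjustment, while 2.02% of all genes did (1.21% higher and 0.81% lower), so a count of 0 among 33 members lay near the background. At an unadjusted p below 0.05 there were 8 (16.8% of all genes), and DESeq2 called 1, DERL1 (6.41% of all genes). In siNFKB2 against siRELB, 7 of 33 passed, with 2 higher (ERN1 and EDEM1) and 5 lower (XBP1, PDIA3, PDIA4, SYVN1 and SEC24D). The background there was 26.6% of all genes, of which 12.2% were higher and 14.3% lower. A test for any difference among the 3 groups called 8 of 33 members, against 30.0% of all genes (4443 of 14815). Leaving out siNS replicate 1 gave 5 calls for siRELB over siNS (12% of all genes). The fit with the replicate number as a block gave 3 there, DNAJB9, EDEM1 and SEC24D, all higher (10.6% of all genes called). The siNFKB2 against siRELB count was 3 without siNFKB2 replicate 2 (14.4% of all genes) or siRELB replicate 2 (15.2%) and 4 without siRELB replicate 3 (15.4%). Between these 2 knockdowns same-numbered libraries deviated together, as did siNFKB2 replicate 3 and siRELB replicate 2. With the replicate number as a block 13 members were called (40.9% of all genes), 2 higher and 11 lower, among them the 7 of the main test. The comparisons share libraries, so their calls are not independent of each other, and they are given side by side below.

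**Figure D2:**
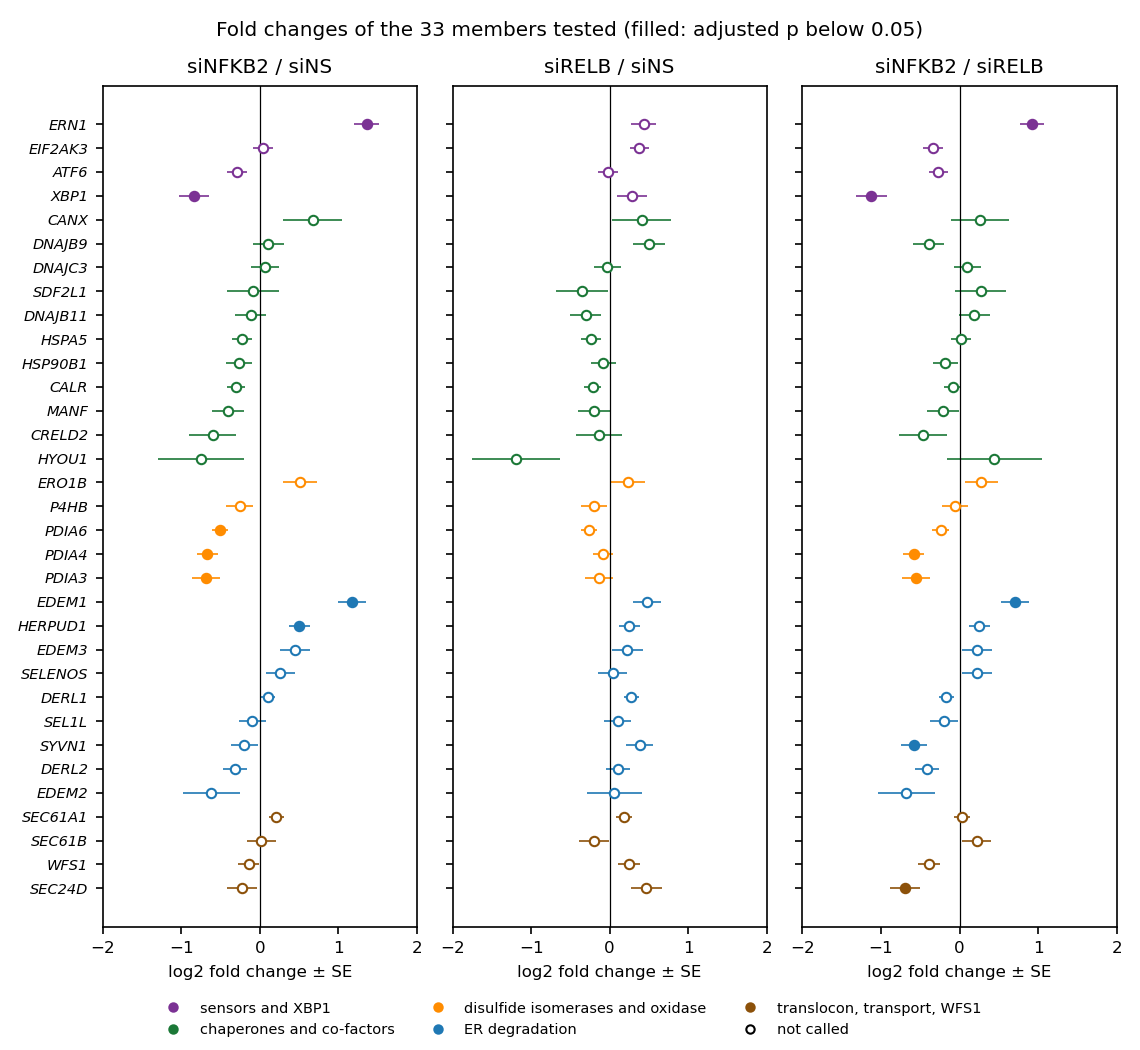
Log2 fold change of each of the 33 tested members with its standard error, in siNFKB2 against siNS, siRELB against siNS and siNFKB2 against siRELB, ordered by role, with filled points for members that passed an adjusted p of 0.05. In the first panel ERN1 at 1.36 and EDEM1 at 1.18 lie farthest to the right and XBP1 at -0.84 farthest to the left; no point is filled in the middle panel.

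Among the sensor and signalling genes, ERN1 and XBP1, the kinase and its splicing target, were called in opposite directions. ERN1 (chr17:64039142-64130819, minus strand, GRCh38) encodes IRE1, the sensor with kinase and ribonuclease domains. It had 23.0, 29.2 and 30.0 CPM in siNFKB2, 14.1, 15.4 and 13.7 in siRELB and 12.3, 9.63 and 10.0 in siNS libraries. The siNFKB2 libraries all lay above every other library, and the siRELB libraries all lay above the siNS ones by a smaller step. ERN1 rose in siNFKB2 against siNS by 1.36 on the log2 scale (SE 0.156, 2.57-fold, adjusted p 0.000398, edgeR) and stood 0.93 above siRELB (SE 0.154, adjusted p 0.00209). The siRELB libraries differed from siNS by 0.43 (95% interval 0.09 to 0.78), with an adjusted p of 0.200. In bulk RNA, fewer cells expressing a gene and less RNA per cell cannot be told apart, here and in the results that follow. Both siNFKB2 calls on ERN1 held under all 19 alternatives.

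XBP1 (chr22:28794555-28800597, minus strand) encodes the transcription factor whose mRNA IRE1 splices, and its promoter holds the first ERSE shown above. It had 64.0, 39.0 and 37.2 CPM in siNFKB2, 99.0, 105 and 102 in siRELB and 95.0, 75.3 and 80.5 in siNS libraries. No siNFKB2 library overlapped the other groups, and the siRELB libraries stood above the siNS ones without overlap. XBP1 fell in siNFKB2 to 0.559 of its siNS level (log2 fold change -0.84, SE 0.196, adjusted p 0.0110, edgeR) and to 0.459 of its siRELB level (-1.12, SE 0.196, adjusted p 0.00275). Without siNFKB2 replicate 2 the first call was lost (log2 fold change -0.71, adjusted p 0.0589), while the call against siRELB held under all 19 alternatives. Between siRELB and siNS the XBP1 difference was 0.29 (adjusted p 0.493).

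The other sensors did not pass the main test in any comparison, but both were called lower in siNFKB2 than in siRELB in the fit with the replicate block. That fit also called ATF6 lower in siNFKB2 than in siNS, where it called 40.1% of all genes. EIF2AK3, which encodes PERK, had 28.8, 25.9 and 23.2 CPM in siNFKB2, 32.4, 33.1 and 32.7 in siRELB and 27.4, 24.1 and 24.1 in siNS libraries. Its siRELB libraries were the highest of the 9 and very close to each other, and the siNFKB2 and siNS libraries overlapped. The log2 difference was 0.04 in siNFKB2 against siNS (95% interval -0.23 to 0.32), 0.38 in siRELB against siNS (adjusted p 0.160, the smallest of any member in that comparison) and -0.34 in siNFKB2 against siRELB (adjusted p 0.0704, edgeR, and 0.0292 with the replicate block). ATF6, the sensor cut in the Golgi, had 110.3, 92.7 and 80.4 CPM in siNFKB2, 115, 114 and 112 in siRELB and 123, 115 and 109 in siNS libraries. Its siNFKB2 libraries reached from just above the lowest siNS library downwards. The log2 difference against siNS was -0.29 (95% interval -0.57 to -0.01, adjusted p 0.115, edgeR, and 0.0348 with the replicate block at -0.30). Against siRELB it was -0.27 (adjusted p 0.141, and 0.0451 with the replicate block at -0.28).

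**Figure D3:**
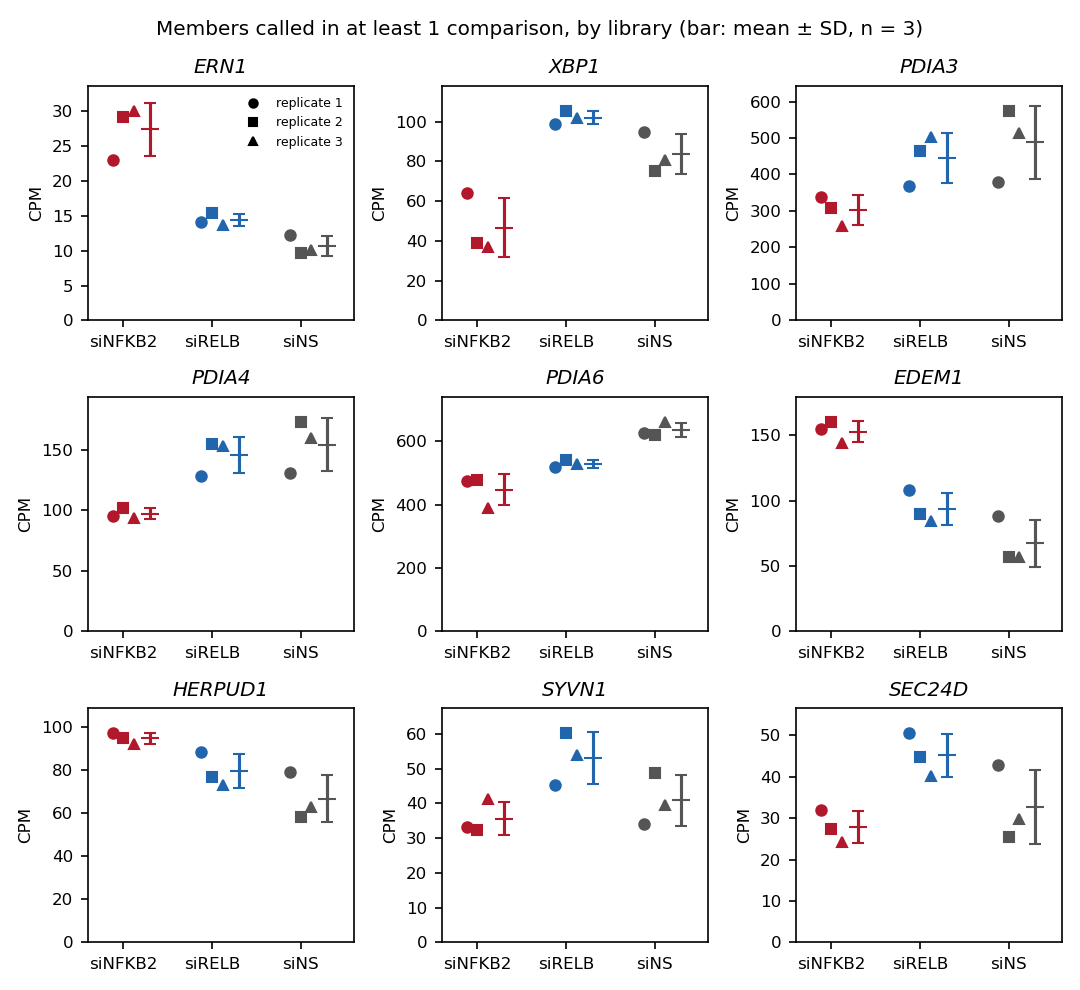
Level in CPM of the members called in at least 1 comparison, one panel per member, with one point per library and a bar for the group's mean ± SD (n = 3), for siNFKB2, siRELB and siNS from left to right. ERN1 and EDEM1 have their highest points in siNFKB2, and XBP1, PDIA3 and PDIA4 their lowest, with no overlap between siNFKB2 and siNS.

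None of the chaperones was called in the main test, HSPA5 among them. HSPA5, the HSP70 chaperone BiP and the usual marker of the response, had 707, 870.3 and 742 CPM in siNFKB2, 694, 802 and 797 in siRELB and 776, 994 and 944 in siNS libraries. The groups overlapped, and the lowest library of each was replicate 1. The log2 difference was -0.23 in siNFKB2 against siNS (95% interval -0.51 to 0.06, adjusted p 0.220, edgeR), -0.24 in siRELB against siNS (adjusted p 0.369) and 0.02 in siNFKB2 against siRELB (adjusted p 0.943). An increase of HSPA5 in siNFKB2 beyond 0.06 on the log2 scale lay outside that interval.

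HSP90B1, whose promoter held a pair of ERSE sites, had 743, 891 and 812 CPM in siNFKB2, 736, 1009.6 and 1029 in siRELB and 799, 1106 and 1033 in siNS libraries, with a log2 difference of -0.26 in siNFKB2 against siNS (adjusted p 0.255). CALR had 1268, 1413 and 1162 CPM in siNFKB2, 1298, 1373 and 1416 in siRELB and 1422, 1715 and 1606 in siNS libraries. For CALR alone of these abundant chaperones the siNFKB2 and siNS libraries did not overlap, by a small margin, and its difference of -0.30 (95% interval -0.55 to -0.06) missed the threshold at an adjusted p of 0.0668 in edgeR while DESeq2 called it (30.0% of all genes). CRELD2 and MANF, small secreted proteins induced by ER stress, stood at 42.6 ± 12.5 and 86.5 ± 6.78 CPM in siNFKB2, 58.7 ± 10.3 and 100.2 ± 17.6 in siRELB, and 64.6 ± 24.6 and 115 ± 32.1 in siNS (SD, n = 3 each). Their siNFKB2 differences from siNS were -0.60 (adjusted p 0.170) and -0.41 (adjusted p 0.166). With the replicate block both were called lower there (adjusted p 0.00525 and 0.0272, edgeR), in a fit that called 40.1% of all genes. That fit also called CALR and HSP90B1 lower and CANX higher. Against siRELB, CRELD2 lay at -0.46 (adjusted p 0.283), or -0.50 with the replicate block (adjusted p 0.0115). In siNFKB2 against siNS the J-domain cochaperones, which hand substrates to BiP, lay closer to 0: DNAJB9 at 0.11, DNAJB11 at -0.12 and DNAJC3 at 0.07 on the log2 scale. In siRELB against siNS they lay at 0.50, -0.31 and -0.03. The DNAJB9 value was the highest of any member there (95% interval 0.06 to 0.94, adjusted p 0.241, and 0.0368 with the replicate block, edgeR). DNAJB9 lay at -0.39 in siNFKB2 against siRELB (adjusted p 0.170, and 0.0392 with the replicate block). SDF2L1, which binds DNAJB11 in a chaperone complex, was at -0.09 in siNFKB2 against siNS, with an interval of -0.81 to 0.64.

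The oxidoreductases, which form and rearrange disulfide bonds, had 3 of 5 members lower in siNFKB2 than in siNS, beside 13.5% of all genes, and a median log2 fold change of -0.51. With 5 members this is a description and not a test of the group. PDIA4 (ERp72, chr7:149003062-149028641, minus strand) had 95.2, 102 and 93.8 CPM in siNFKB2, 128, 155 and 153 in siRELB and 130.5, 173 and 159 in siNS libraries. Every siNFKB2 library lay below every library of the other groups, which overlapped each other. PDIA4 fell by 0.67 on the log2 scale in siNFKB2 against siNS (SE 0.131, adjusted p 0.00479, edgeR) and by 0.58 against siRELB (SE 0.131, adjusted p 0.00916), and both calls held under all 19 alternatives. Between siRELB and siNS its difference was -0.08 (95% interval -0.37 to 0.20).

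PDIA6 (P5, chr2:10783391-10837977, minus strand) is an oxidoreductase that binds BiP, and its promoter holds the ERSE shown above. It had 475, 478 and 391 CPM in siNFKB2, 518, 542 and 528 in siRELB and 627, 619 and 661 in siNS libraries. The 3 groups did not overlap, and the siRELB libraries lay between the others. PDIA6 fell by 0.51 in siNFKB2 against siNS (SE 0.104, adjusted p 0.00616), a call kept under all 19 alternatives, while the siRELB difference of -0.26 (95% interval -0.49 to -0.03) had an adjusted p of 0.240 and siNFKB2 against siRELB, at -0.24, one of 0.113 (edgeR). In GENCODE 29, 29.7% of the PDIA6 exon bases overlap exons of ATP6V1C2 on the other strand, and whether the counting used strand is not given in the sources used here.

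PDIA3 (ERp57, chr15:43746392-43773279, plus strand) works with calreticulin and calnexin on glycoproteins. It had 339.6, 309 and 259.9 CPM in siNFKB2, 369, 464 and 502 in siRELB and 379, 574 and 513 in siNS libraries. The siNFKB2 libraries were the lowest 3, with siRELB and siNS replicate 1 not far above them. PDIA3 fell by 0.69 in siNFKB2 against siNS (SE 0.176, adjusted p 0.0165) and by 0.56 against siRELB (SE 0.176, adjusted p 0.0401, edgeR). Neither call on PDIA3 was kept throughout: against siNS it missed the threshold without siNFKB2 replicate 2 (adjusted p 0.0521), siNFKB2 replicate 3 (0.0606) or siNS replicate 3 (0.0578), and against siRELB without any one of these (0.0969, 0.125 and 0.0555) or without siRELB replicate 2 (0.115) or 3 (0.144). PDIA3P1, a pseudogene that resembles the PDIA3 transcript, stood at 8.11, 6.09 and 5.76 CPM in siNFKB2, 10.0, 9.98 and 11.8 in siRELB and 10.1, 11.5 and 12.4 in siNS, so little of the PDIA3 signal was assigned there, and 16.8% of the PDIA3 exon bases overlap ELL3 on the other strand.

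The other 2 oxidoreductase genes were not called in the main test. P4HB, the most abundant of the 5, had 718 ± 89.6 CPM in siNFKB2, 749 ± 98.5 in siRELB and 858 ± 173 in siNS (SD, n = 3 each), with overlapping libraries and a difference of -0.26 in siNFKB2 against siNS (95% interval -0.63 to 0.11). ERO1B, an oxidase that recharges PDI, had 6.54 ± 0.415 CPM in siNFKB2, 5.39 ± 0.452 in siRELB and 4.57 ± 1.22 in siNS, and was the one oxidoreductase above 0, at 0.51 (adjusted p 0.101, edgeR). P4HB, with the most reads of the 5, thus lay below 0 and ERO1B, with the fewest, above 0. With the replicate block P4HB was called lower in siNFKB2 against siNS, at -0.24 (adjusted p 0.0493, edgeR). That fit called 40.1% of all genes.

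The degradation genes split in direction. EDEM1 (chr3:5187646-5219957, plus strand) encodes a mannosidase-like protein that marks misfolded glycoproteins for removal from the ER. It had 155, 159.9 and 144 CPM in siNFKB2, 108, 89.5 and 84.0 in siRELB and 88.3, 57.1 and 57.0 in siNS libraries. The siNFKB2 libraries stood well above the others, and siRELB and siNS overlapped only through siNS replicate 1. EDEM1 rose by 1.18 on the log2 scale in siNFKB2 against siNS (SE 0.179, 2.26-fold, adjusted p 0.00139, edgeR), a call kept under all 19 alternatives. Against siRELB it was 0.70 higher (SE 0.177, adjusted p 0.0154), a call lost without siNFKB2 replicate 2 (adjusted p 0.0634), siRELB replicate 2 (0.0645) or siRELB replicate 3 (0.0700). In siRELB against siNS the EDEM1 difference was 0.47 (95% interval 0.08 to 0.87, adjusted p 0.215). With the replicate block EDEM1 was called higher there, at 0.49 (adjusted p 0.0283, edgeR), in a fit that called 10.6% of all genes.

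HERPUD1 (chr16:56932048-56944863, plus strand), a membrane protein of the HRD1 ubiquitin ligase complex whose promoter holds an ERSE-II, had 97.4, 95.0 and 92.2 CPM in siNFKB2, 88.5, 76.8 and 73.4 in siRELB and 79.2, 58.2 and 63.2 in siNS libraries. The siNFKB2 libraries were the highest 3 and close together, and siRELB overlapped siNS. HERPUD1 rose by 0.50 in siNFKB2 against siNS (SE 0.135, 1.42-fold, adjusted p 0.0204, edgeR). The call was lost without siNS replicate 2 (adjusted p 0.0678), siNS replicate 3 (0.0895), siNFKB2 replicate 2 (0.0692) or siNFKB2 replicate 3 (0.0570), and in a fit of the 6 compared libraries alone (0.0510).

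SYVN1 (chr11:65121780-65134533, minus strand) encodes HRD1, the ubiquitin ligase itself. It had 33.2, 32.5 and 41.2 CPM in siNFKB2, 45.2, 60.2 and 54.0 in siRELB and 34.1, 48.8 and 39.7 in siNS libraries. The siNFKB2 and siRELB libraries did not overlap, whereas siNS overlapped both. SYVN1 was 0.58 lower in siNFKB2 than in siRELB (SE 0.170, adjusted p 0.0294, edgeR), with -0.20 in siNFKB2 against siNS (adjusted p 0.433) and 0.38 in siRELB against siNS (adjusted p 0.291). The call was lost without siNFKB2 replicate 1 (adjusted p 0.0650) or 2 (0.122), siRELB replicate 2 (0.118) or 3 (0.0863), or siNS replicate 3 (0.0504). SEL1L, the scaffold of the same ligase complex, overlapped in all groups, at 169 ± 29.3, 194 ± 24.1 and 181 ± 36.2 CPM in siNFKB2, siRELB and siNS (SD, n = 3 each).

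The remaining degradation genes were not called in the main test. EDEM3, the close relative of EDEM1, had 37.7 ± 2.06 CPM in siNFKB2, 32.4 ± 3.89 in siRELB and 27.7 ± 8.32 in siNS (SD, n = 3 each). The siNS replicate 1 lay inside the siNFKB2 range. In siNFKB2 against siNS the EDEM3 difference was 0.44 (adjusted p 0.118, and 0.0131 with the replicate block, edgeR). DERL2, a derlin of the retrotranslocation channel, lay at -0.31 in siNFKB2 against siNS and -0.41 against siRELB (adjusted p 0.162 and 0.0709, edgeR). With the replicate block these adjusted p-values were 0.0489 and 0.0122. That fit called 40.1% and 40.9% of all genes in these comparisons. DERL1 had 277, 305 and 292 CPM in siNFKB2, 309, 344 and 329 in siRELB and 270.0, 272 and 269 in siNS. Every siRELB library of DERL1 was above every siNS one, and the difference of 0.28 (95% interval 0.07 to 0.48) had an adjusted p of 0.175 in edgeR and 0.0288 in DESeq2. SELENOS, a selenoprotein that binds derlins, lay at 0.26 in siNFKB2 against siNS with overlapping libraries.

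Among the genes of translocation, transport and ER membrane function, none was called against siNS in the main test. SEC24D (chr4:118722823-118838683, minus strand) encodes a cargo-binding coat protein of COPII vesicles, which carry folded proteins out of the ER. It had 32.0, 27.4 and 24.4 CPM in siNFKB2, 50.6, 44.8 and 40.3 in siRELB and 42.8, 25.4 and 29.9 in siNS libraries. The siNFKB2 libraries all lay below the siRELB ones, and siNS spread across both. In siRELB against siNS, SEC24D lay at 0.47 (adjusted p 0.264, and 0.0316 with the replicate block, edgeR). SEC24D was 0.70 lower in siNFKB2 than in siRELB (SE 0.195, adjusted p 0.0248, edgeR), a call lost without siNFKB2 replicate 2 (adjusted p 0.101) or 3 (0.106) or siRELB replicate 1 (0.0822) or 2 (0.0697). SEC61A1 and SEC61B, subunits of the channel through which new proteins enter the ER, lay at 0.21 (adjusted p 0.147) and 0.02 (adjusted p 0.954) in siNFKB2 against siNS. WFS1, wolframin of the ER membrane, lay at -0.14 in the same comparison and at -0.39 against siRELB (adjusted p 0.0589, and 0.0263 with the replicate block).

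**Figure D4:**
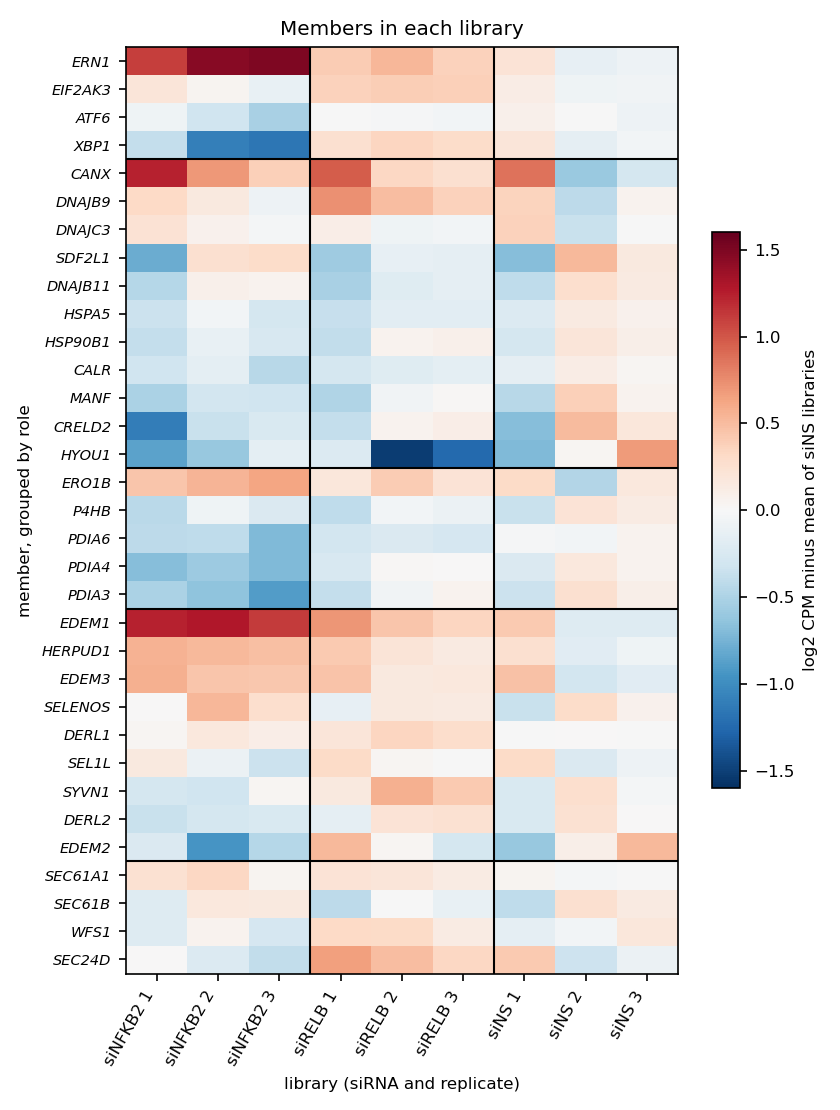
Heat map of the log2 level of each tested member in each library relative to its siNS mean, with members by role down the page and the siNFKB2, siRELB and siNS libraries from left to right. ERN1 and EDEM1 are high across the 3 siNFKB2 libraries and XBP1 and PDIA4 low, while many chaperones are low in replicate 1 of each group.

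Set by role, the siNFKB2 against siNS medians were -0.12 for the 4 sensor and signalling genes, XBP1 among them, -0.23 for the 11 chaperones, -0.51 for the 5 oxidoreductases, 0.11 for the 9 tested degradation genes and -0.06 for the 4 transport and membrane genes on the log2 scale. In siRELB against siNS the same medians were 0.33, -0.20, -0.13, 0.23 and 0.21, and in siNFKB2 against siRELB -0.30, 0.02, -0.24, -0.17 and -0.18. All 9 tested degradation genes had a siRELB difference above 0, the smallest at 0.04 and the largest at 0.47, though none passed the test, and 48.0% of all genes lay above 0 in that comparison. Among the ERSE genes in siNFKB2 against siNS, the main test called XBP1 and PDIA6 lower and none higher. Below 0 but not called there were HSPA5 (-0.23), HSP90B1 (-0.26), CALR (-0.30) and CRELD2 (-0.60). Above 0 but not called were ERO1B (0.51) and CANX (0.67). Of the ERSE-II genes, HERPUD1 rose, and SDF2L1 (-0.09) and HYOU1 (-0.75) did not pass the test.

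Chaperone levels also varied between replicates, and 8, 7 and 8 of the 11 chaperones lay below their own group's mean in replicate 1 of siNFKB2, siRELB and siNS. SDF2L1 had 30.9, 63.8 and 65.7 CPM in siNFKB2, 36.0, 48.8 and 48.3 in siRELB and 33.3, 77.0 and 59.9 in siNS libraries. CRELD2 had 28.3, 47.8 and 51.6 CPM in siNFKB2, 46.9, 63.5 and 65.8 in siRELB and 38.0, 86.5 and 69.2 in siNS libraries, and MANF had 78.7, 91.0 and 89.8, 80.2, 107 and 113, and 81.9, 146 and 117 in the same order. In all 3 genes the library numbered 1 was the lowest of its group. The median chaperone stood 0.13, 0.14 and 0.28 below its own group's mean on the log2 scale in replicate 1 of siNFKB2, siRELB and siNS, while the medians over all genes were 0.02, 0.02 and -0.01 from it. The chaperones CANX, DNAJB9 and DNAJC3 went the other way, with replicate 1 the highest of its group in siNFKB2, siRELB and siNS alike. Of the 5 oxidoreductases 3, 5 and 4 lay below their own group's mean in replicate 1 of siNFKB2, siRELB and siNS, while EDEM1, EDEM3 and SEC24D were highest in replicate 1 of siRELB and siNS. The labels name no batch, and what set replicate 1 apart was not tested.

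**Figure D5:**
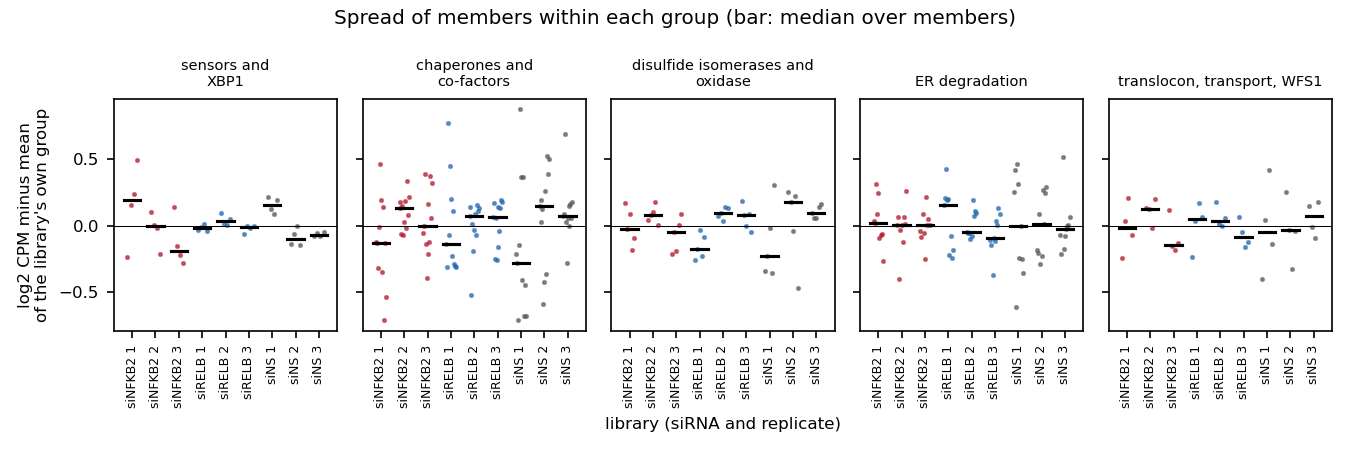
Log2 deviation of each tested member from the mean of its own group, by library and role, with a line at each median, for siNFKB2, siRELB and siNS replicates from left to right. The chaperone median in replicate 1 lies 0.13, 0.14 and 0.28 below 0 in siNFKB2, siRELB and siNS.

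Without the 3 libraries numbered 1, which leaves 2 a group, 18 of 33 members were called in siNFKB2 against siNS (44.9% of all genes), 13 in siRELB against siNS (22.7%) and 14 in siNFKB2 against siRELB (44.1%). In siNFKB2 against siNS, all 7 members called with 9 libraries were among the 18, of which 6 were higher and 12 lower. CANX (0.98, adjusted p 0.000850), EDEM3 (0.67, 0.000466) and ERO1B (0.71, 0.0271) were added to those higher. CRELD2 (-0.65, adjusted p 0.00102), MANF (-0.54, 0.00265), ATF6 (-0.38, 0.0101), HSP90B1 (-0.33, 0.0203), P4HB (-0.33, 0.0220), CALR (-0.37, 0.0233), DERL2 (-0.40, 0.0105) and EDEM2 (-1.07, 0.0226) were added to those lower with edgeR. Between siRELB and siNS, 10 were higher and 3 lower. Those higher included EDEM1 (0.61, adjusted p 0.00176), SEC24D (0.62, 0.00511), XBP1 (0.41, 0.0101), ERN1 (0.57, 0.0117) and EIF2AK3 (0.45, 0.0157), and those lower were DNAJB11 (-0.38, 0.0142), SDF2L1 (-0.49, 0.0144) and HYOU1, which had few reads. The 5 members called for siRELB over siNS without siNS replicate 1 alone were ERN1, DNAJB9, EDEM1, EDEM3 and SEC24D, all higher.

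Other genes of the pathway were described from 8 lists, whose counts stand beside 26.1% of all genes called in siNFKB2 against siNS (12.6% higher and 13.5% lower), 2.02% in siRELB against siNS and 26.6% in siNFKB2 against siRELB. Among 15 tested genes of the PERK and ATF4 arm, 5 were higher and 1 lower in siNFKB2 than in siNS; the lower one was NUPR1, a stress-induced chromatin protein (-1.06, adjusted p 0.0257). PPP1R15A, which encodes the phosphatase subunit GADD34 that reverses PERK signalling, rose by 0.93 (adjusted p 0.000569, edgeR), TRIB3, a pseudokinase induced by ATF4, by 0.71 (0.00613) and SLC7A11, the cystine transporter, by 1.96 (0.0147), whereas ATF4 itself (0.22, adjusted p 0.500) and DDIT3 (0.50, 0.344), which encodes CHOP, did not pass. In siNFKB2 against siRELB 4 of these 15 were higher and 1 lower, and in siRELB against siNS none was called. PPP1R15A and TRIB3 were also higher in siNFKB2 than in siRELB, by 0.98 and 0.80.

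Among 11 tested genes of other unfolded protein response signalling, 1 was higher (12.6% of all genes) and 4 lower (13.5%) in siNFKB2 than in siNS, and 2 were lower than in siRELB (14.3%). CREB3L1 and CREB3L2, ER-anchored transcription factors related to ATF6, fell by 0.91 (adjusted p 0.00495) and by 1.06 (0.00935) against siNS and by 1.29 and by 1.69 against siRELB, while CREB3 of the same family rose by 0.62 (0.00412, edgeR). Of 24 further ER folding genes, none was higher and 3 lower, beside the same background: DNAJC1 (-0.74), ERO1A (-0.50), the other PDI oxidase, and TMX4 (-0.88), a membrane thioredoxin. Of 18 further degradation genes only RNF185, a ubiquitin ligase, was called against siNS, at -1.41 (adjusted p 0.000847), while 3 were higher and 3 lower against siRELB.

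Of 12 oligosaccharyltransferase subunits, which attach glycans to new ER proteins, OSTC fell by 0.82 (adjusted p 0.000698) and DDOST by 0.75 (0.00883) in siNFKB2 against siNS, and none was higher. The 22 further genes of the translocon held 2 higher and 3 lower, with SSR3 at 0.73 and SEC11C at -0.65, a share near the 26.1% of all genes. The 12 further COPII genes held 1 higher and 1 lower, SAR1B at 0.50 and SEC24C at -0.47, and of 14 tested cytosolic chaperones and their regulators only DNAJB6 was called, at 0.39 (adjusted p 0.0289, edgeR). None of these lists had a call in siRELB against siNS. The median log2 fold changes of the 8 lists in siNFKB2 against siNS were 0.22 for the PERK and ATF4 arm, -0.08 for other signalling, -0.18 for further folding genes, -0.00 for further degradation genes, 0.01 for the translocon, 0.04 for the oligosaccharyltransferase, 0.13 for COPII and -0.15 for cytosolic chaperones, beside -0.00 for all genes.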

How the data were processed

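Each of the 9 libraries came with 1 table of read counts per gene symbol, deposited by the authors as whole-number counts that were not normalized. Per the submitters' processing notes, Trimmomatic 0.38, STAR 2.7.1a and Subread 1.6.4 were used with build GRCh38.p13; no label names the annotation, the strand setting or the handling of reads with several placements (not given in the sources used here). Symbols listed more than once carry a suffix (5005 further entries of 2652 genes, at most 0.0369% of a library's counts), and the first entry was used. Genes were filtered with filterByExpr, scaled by TMM and tested with edgeR 4.0.16 (R 4.3.3) by its quasi-likelihood test, with 3 group means fitted to all 9 libraries and Benjamini-Hochberg adjustment over the 14815 genes tested. The common biological coefficient of variation was 0.184. CPM use TMM-scaled library sizes, and log2 fold changes come from the fit. The scripts were tested on simulated data.

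The members and all gene lists were chosen with earlier results of these data known. Values per library are given for members called in at least 1 comparison and for the sensors, XBP1 and HSPA5; a few further members are shown for their spread, chosen after their values were seen. From each other list, up to 4 called genes with the smallest adjusted p could be named; ATF4 and DDIT3 were added after their values were seen. DESeq2 1.42.0, other scalings and filters, a covariate, replicate block and leaving out libraries were the alternatives. Same-numbered siNFKB2 and siRELB libraries deviated together from their group means (correlations 0.535, 0.171 and 0.450). So did siNFKB2 replicate 3 and siRELB replicate 2 (0.258). The siNS library numbered 1 also deviated with those of siNFKB2 and siRELB (0.585 and 0.594), and siNS replicate 2 with siNFKB2 replicate 3 (0.569). Members that the fit with the replicate block added to the calls are named in each comparison. The pairing by number is read from the data, since no label states what the numbers share. NUPR1 was also named after its values were seen.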

Additional observations from a re-analysis of the deposited data

How the results depend on the processing

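The numbers of members called, 7 for siNFKB2 over siNS, 0 for siRELB over siNS, 7 for siNFKB2 over siRELB and 8 for any difference among the 3 groups, stayed within 1.5 times of these counts under relative-log-expression and upper-quartile scaling, no filter, a mean of at least 5 CPM and summed further entries; so did the first 3 in fits of the 6 compared libraries alone, and so did all 4 with DESeq2 apart from its 1 call for siRELB over siNS. No called member turned its direction. With the mitochondrial ribosomal RNA share as covariate the counts were 17, 2, 11 and 17 (40.4%, 8.95%, 35.6% and 44.7% of all genes), and without the 3 libraries numbered 1 they were 18, 13, 14 and 25 (44.9%, 22.7%, 44.1% and 55.6%); the cause was not tested. Leaving out 1 library gave 4 to 15, 0 to 5, 3 to 10 and 4 to 17. Over all genes the same fits called 14.6% to 32.3%, 0.0986% to 12%, 14.4% to 32.4% and 15.7% to 42.7%.

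Replicate numbers did not pair siNS with either knockdown by the rule used, since correlations of same-numbered libraries' deviations fell to 0.0439, not all above 0.1. With a replicate block the counts were 16, 3, 13 and 18, against 40.1%, 10.6%, 40.9% and 48.9% of all genes. The limits are 3 libraries a group, a median 95% half-width of 0.38 on the log2 scale, and few reads for HYOU1, EDEM2 and CANX.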
